A study of Mus musculus with 4 samples.

Results

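Fat cells are scattered between the fibres of the diaphragm, the main muscle of breathing, and they store fatty acids as triglyceride. The results concern 10 genes of fat cell lipid handling and associated metabolism in mouse diaphragm, taken from the left hemi-diaphragm: Pck1, Scd1, Car3, Cdo1, Cyp2e1, Fabp4, Cidec, Lipe, Fasn and Acly, 10 of the 18194 genes that the array's annotation names on their own. They were chosen by gene symbol, with earlier results of these arrays in view, and every one of their 25 probe sets, the groups of short oligonucleotides that each measure a transcript, was kept. Total RNA was measured on 2 arrays of the synaptic region, the band where the motor nerve meets the fibres, and on 2 arrays of the non-synaptic region. The labels used here name no strain, sex, age or number of animals. They do not tell whether a region's 2 arrays were made from different animals, so every p-value measures only the spread between these arrays, which may be technical. No treatment or genotype is named for either region.

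A fat cell fills its droplet in several steps. Acly, ATP citrate lyase, makes cytosolic acetyl-CoA from citrate, Fasn, fatty acid synthase, joins such units into palmitate, and Scd1, a stearoyl-CoA desaturase, puts a double bond into the chain. Pck1, the cytosolic phosphoenolpyruvate carboxykinase, supplies glycerol 3-phosphate from non-glucose sources in fat cells and new glucose in liver and kidney. Fabp4 carries fatty acids inside the cell, Cidec fuses small droplets into large ones, and Lipe, hormone-sensitive lipase, releases fatty acids from the store. Car3, a carbonic anhydrase of fat cells and slow fibres, Cdo1, the cysteine dioxygenase that leads towards taurine, and Cyp2e1, a cytochrome P450 that oxidises ethanol and acetone, are not lipid enzymes themselves but are known from fat tissue or liver. The label of fat cell lipid metabolism enzymes therefore covers only a part of the 10 genes in the strict sense, and Fabp4 and Cidec are a carrier and a droplet protein.

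The 2% trimmed mean was 2500 on each of the 4 arrays, an equality that scaling can set and that does not measure how alike the arrays were. The median intensity was 658 and 769 in the synaptic region, against 704 and 738 in the non-synaptic region. Log2 values were taken after raising intensities below 158.891 to that floor, the 20th percentile of all values. Between 18.7% and 21.3% of the probe sets of an array lay at the floor. Arrays with the same number in their titles differed less (median absolute log2 difference of 0.203 and 0.170) than arrays of 1 region, at 0.327 between the synaptic pair and 0.283 between the non-synaptic pair.

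The 10 genes split into a group with lower values in the synaptic region and a group with similar values in both regions. Pck1, Cdo1, Cyp2e1, Cidec, Scd1 and Car3 were at least 2-fold lower in the synaptic region, with both synaptic arrays below both non-synaptic arrays. Fabp4, Lipe, Acly and Fasn differed by at most 0.20 on the log2 scale. Since the genes were chosen with this contrast known, these differences are a description and no test is attached to them. Over the leading probe sets, the median log2 difference was -1.35 (n = 10 genes), against -0.01 over all 27026 probe sets tested. Of the 10 genes, 6 were both apart and at least 2-fold lower, where 0.318% of all probe sets tested were, and 7 were apart in this direction, where 10% were. For 0 genes were both synaptic arrays above both non-synaptic arrays, a pattern of 10% of all probe sets, or 0.570% with a difference of at least 2-fold. Cidec is among the 6 and the 7 although it lay below the filter that the shares use, and nothing is read from these counts, since the choice of genes used the same contrast. Of the 10 leading probe sets, 9 passed the filter on dim probe sets, that of Pck1 only through its non-synaptic arrays.

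**Figure D1:**
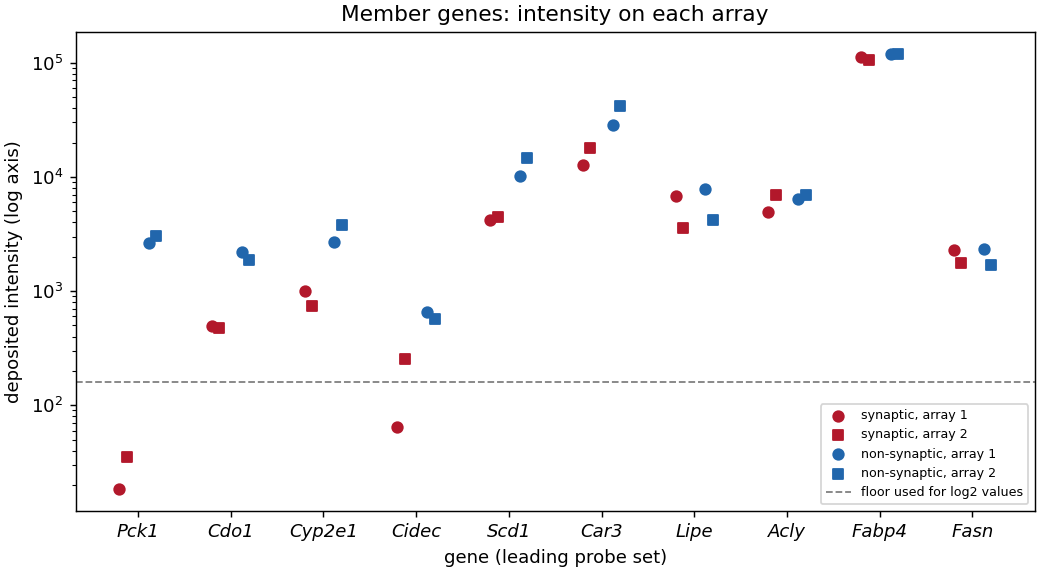
Deposited intensity (log axis) of the leading probe set of each gene on each array, synaptic arrays in red to the left of non-synaptic arrays in blue, with a circle for array 1, a square for array 2 and a dashed line at the floor of 158.891. The synaptic points of Pck1, Cdo1, Cyp2e1, Cidec, Scd1 and Car3 lie clearly below the non-synaptic points, and those of Lipe, Acly and Fasn overlap with them.

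Pck1 had the largest gap of the 10. Its leading probe set had intensities of 18.5 and 35.0 in the synaptic region, against 2656 and 3053 in the non-synaptic region. Both synaptic values were under the floor, and both non-synaptic values were far above it, so the groups did not overlap. Against the floor, Pck1 was at least 17.9-fold lower in the synaptic region. A second probe set had 356 and 336 in the synaptic region, against 644 and 1201 in the non-synaptic region, a log2 difference of -1.35 ± 0.43 (SE, n = 2 arrays per region). The third probe set of Pck1 was under the floor on all 4 arrays, from 110 to 142 in the synaptic region and from 102 to 124 in the non-synaptic region. Both the leading and the second probe set passed the filter only through their non-synaptic arrays.

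Cdo1 and Cyp2e1, which process cysteine and small molecules, were each read by 1 probe set. Cdo1 had intensities of 495 and 477 in the synaptic region, against 2179 and 1858 in the non-synaptic region. The 2 synaptic arrays nearly coincided and stood 1.91 on the log2 scale under the lower non-synaptic array. The log2 difference was -2.05 ± 0.27 (SE, n = 2 arrays per region), or 4.14-fold lower. Cyp2e1 had 1001 and 743 in the synaptic region, against 2671 and 3753 in the non-synaptic region. Its regions were also apart, with a log2 difference of -1.88 ± 0.30 (SE, n = 2 arrays per region), or 3.67-fold lower.

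The promoters of Pck1 and Cyp2e1, 2 of the lower genes, are given from RefSeq (GRCm38.p6). They run from 250 bases before to 50 bases after the annotated start, in 5′ to 3′ direction of the gene. Pck1 lies at chr2:173152823-173153122 on the plus strand and Cyp2e1 at chr7:140763569-140763868 on the plus strand. Capitals mark matches on either strand to 6 short motifs. These were the TATA box letters TATAAA with their variant TTTAAA, the box named for its letters CCAAT, the GC box with the letters GGGCGG, the letters ACGTCA of the cyclic AMP response element, and the nuclear receptor site letters AGGTCA.
Pck1: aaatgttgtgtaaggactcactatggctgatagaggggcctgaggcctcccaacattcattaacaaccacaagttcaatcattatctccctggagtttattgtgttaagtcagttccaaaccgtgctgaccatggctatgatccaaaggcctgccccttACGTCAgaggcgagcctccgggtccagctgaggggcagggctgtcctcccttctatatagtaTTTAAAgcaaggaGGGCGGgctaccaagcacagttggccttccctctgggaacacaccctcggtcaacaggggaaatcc
Cyp2e1: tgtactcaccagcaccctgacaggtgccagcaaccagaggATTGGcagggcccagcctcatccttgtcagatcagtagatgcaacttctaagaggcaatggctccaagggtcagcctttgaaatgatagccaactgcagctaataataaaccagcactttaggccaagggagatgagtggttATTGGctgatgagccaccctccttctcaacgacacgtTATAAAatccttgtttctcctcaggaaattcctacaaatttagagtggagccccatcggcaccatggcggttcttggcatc
Pck1 held 1 TTTAAA beginning 29 bases before the start, 1 ACGTCA at 91 bases and 1 GGGCGG at 16 bases before it. Cyp2e1 held 1 TATAAA beginning 31 bases before the start and 2 CCAAT on the opposite strand. Among all 32851 windows of the table, TATAAA was present in 13.6%, TTTAAA in 13.2%, CCAAT in 37.4%, GGGCGG in 35.7%, ACGTCA in 7.51% and AGGTCA in 16.3%. The motifs were chosen with these windows in view, and a match is a stretch of letters and no proof of a binding site.

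Scd1 and Car3 were far above the floor in both regions. Scd1 had intensities of 4216 and 4420 in the synaptic region, against 10185 and 14612 in the non-synaptic region, with means of 4318 ± 144 and 12399 ± 3131 (SD, n = 2 arrays each). Its log2 difference was -1.50 ± 0.24 (SE, n = 2 arrays per region). Its second, dimmer probe set had 223 and 474 in the synaptic region, against 678 and 1521 in the non-synaptic region, and a log2 difference of -1.64 ± 0.59 (SE). The leading probe set was 2.83-fold lower and the second 3.12-fold lower, but the second passed the filter only through its non-synaptic arrays. Car3 had 12622 and 18006 in the synaptic region, against 28714 and 41398 in the non-synaptic region. This leading probe set had a log2 difference of -1.19 ± 0.27 (SE, n = 2 arrays per region), and the regions were apart. Of the 3 other probe sets of Car3, the pair that passed the filter gave log2 differences of -1.60 and -1.73 with the regions apart, the one at -1.73 passing only through its non-synaptic arrays, and the dimmest, under the filter, gave -0.17 with the regions overlapping. Fibre markers were mixed, and the 2 named here were chosen after their values were seen. Myh4, the myosin of the fastest fibres, had 32001 and 40267 in the synaptic region, against 85890 and 93886 in the non-synaptic region, a log2 difference of -1.32 ± 0.18 (SE) with the regions apart, and did not pass the limma test over all probe sets. Myh7, the myosin of the slow fibres that also use Car3, had 122470 and 94032 in the synaptic region, against 117187 and 104679 in the non-synaptic region, a log2 difference of -0.05. The part of the fibre markers in the values of Car3 was not tested.

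Cidec, the droplet fusion protein, had intensities of 64.6 and 253 in the synaptic region, against 655 and 575 in the non-synaptic region. The regions did not overlap, but 1 synaptic array was under the floor, so the 3.06-fold difference is a lower bound. Cidec lay below the filter and was not in the limma fit. With the floor at the 40th percentile its log2 difference shrank to -0.39, and without a floor it was -2.26, as against -1.61 with the floor used here. The value of Pck1 depended on the floor as well, at -1.84 and -6.81 under these settings, as against -4.16, and stayed below 0 in both.

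**Figure D2:**
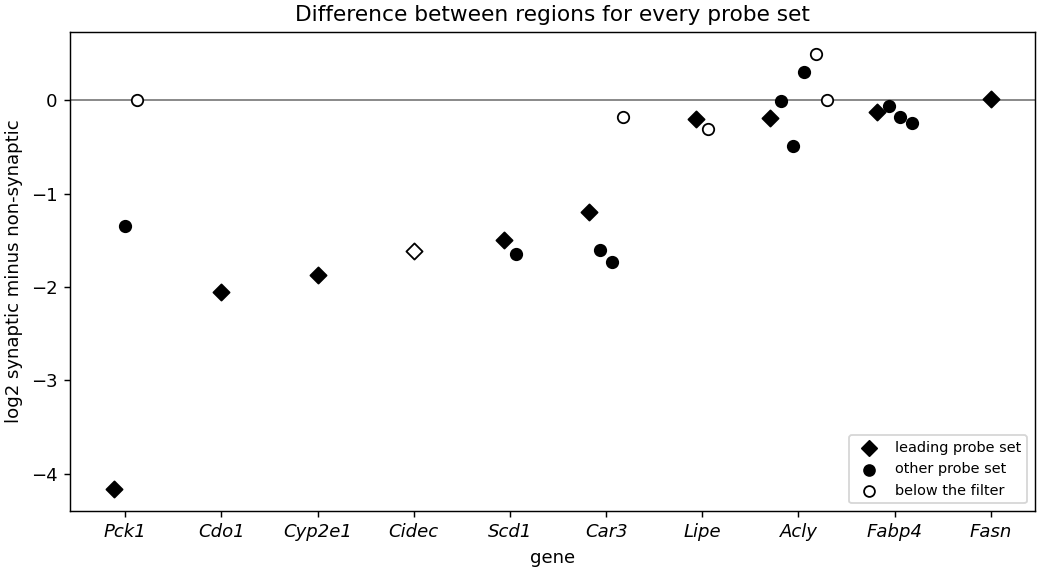
Log2 difference, synaptic minus non-synaptic, for all 25 probe sets of the 10 genes, with diamonds for the leading probe set, circles for the others and open symbols for probe sets below the filter. All filled symbols of Pck1, Cdo1, Cyp2e1, Scd1 and Car3 lie at -1.19 or lower, while the probe sets of Lipe, Acly, Fabp4 and Fasn lie between -0.48 and 0.50.

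Fabp4, the fatty acid carrier of fat cells, capillary endothelium and macrophages, was nearly level between the regions. Its leading probe set had intensities of 111722 and 106280 in the synaptic region, against 119239 and 118059 in the non-synaptic region. Both synaptic arrays were the lower ones, with a log2 difference of -0.12 ± 0.13 (SE, n = 2 arrays per region), less than its standard error. The other 3 probe sets gave differences of -0.06, -0.18 and -0.24. All 4 differences were below 0, and for 2 of the probe sets the regions overlapped. Markers of the other cells that use Fabp4 were read as lists. Over 8 endothelial markers the median log2 difference was -0.01, with a summed intensity of 68407 and 72497 in the synaptic region, against 69634 and 78117 in the non-synaptic region. Over 8 macrophage markers it was -0.03, with sums of 30611 and 34502 in the synaptic region, against 33176 and 36301 in the non-synaptic region, and 0 of the 16 had an unadjusted limma p under 0.05. The regions were apart with the synaptic arrays lower for Esam, of endothelium, at -0.20, and for Cd163, of macrophages, at -0.53, and higher for Cdh5, of endothelium, at 0.12, which are named for being apart.

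The lipase and the enzymes of fatty acid synthesis differed by less than the spread between arrays. Lipe had intensities of 6857 and 3578 in the synaptic region, against 7759 and 4164 in the non-synaptic region. Array 1 was the brighter one in both regions, and the log2 difference was -0.20 ± 0.44 (SE, n = 2 arrays per region). Acly had 4909 and 6898 in the synaptic region, against 6406 and 6896 in the non-synaptic region, a log2 difference of -0.19 ± 0.24 (SE, n = 2 arrays per region). Its 6 probe sets scattered from -0.48 to 0.50, all with overlapping regions. Fasn had 2278 and 1748 in the synaptic region, against 2315 and 1695 in the non-synaptic region, and a log2 difference of 0.01 ± 0.28 (SE, n = 2 arrays per region). For Lipe, Acly and Fasn the sign of the difference turned when a single array was left out, with ranges of -0.67 to 0.27, -0.44 to 0.05 and -0.21 to 0.24. Between arrays of the same number, Lipe was lower in the synaptic region both times, and Acly and Fasn were not. The labels do not tell whether such arrays are pairs, and the fit did not treat them so.

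The promoters of Fasn and Acly are shown for comparison with those of Pck1 and Cyp2e1, with the same motifs in capitals. Fasn lies at chr11:120824498-120824797 and Acly at chr11:100527951-100528250, both on the minus strand (RefSeq, GRCm38.p6).
Fasn: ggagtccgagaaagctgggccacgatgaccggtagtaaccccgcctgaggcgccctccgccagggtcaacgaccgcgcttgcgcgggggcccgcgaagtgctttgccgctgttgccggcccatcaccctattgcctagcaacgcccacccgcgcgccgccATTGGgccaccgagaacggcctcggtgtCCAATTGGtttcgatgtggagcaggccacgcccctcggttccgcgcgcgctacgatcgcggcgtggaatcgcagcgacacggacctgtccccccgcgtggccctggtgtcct
Acly: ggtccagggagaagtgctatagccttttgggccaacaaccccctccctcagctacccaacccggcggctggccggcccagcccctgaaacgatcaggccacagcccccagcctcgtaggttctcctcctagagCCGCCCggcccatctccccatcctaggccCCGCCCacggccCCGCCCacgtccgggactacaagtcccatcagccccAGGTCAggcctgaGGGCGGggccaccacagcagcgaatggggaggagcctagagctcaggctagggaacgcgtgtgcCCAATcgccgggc
Fasn held 3 CCAAT, of which 2 overlap on opposite strands, and Acly held 4 GGGCGG, 1 AGGTCA and 1 CCAAT. The windows of Fasn and Acly were rich in G and C (69.3% and 68.7%) and held 39 and 18 CpG dinucleotides. The windows of Pck1 and Cyp2e1 had 52.0% and 49.7% G and C and 6 and 4 CpG, near or under the median of 7 over all windows. The table had windows for 6 of the 10 genes. Lipe, a gene with similar values in both regions, had windows with 2 and 19 CpG, and Cidec, one of the lower genes, had windows with 7 and 6. Neither window of Cidec held a match to any of the motifs, and Lipe held only GGGCGG, in the window with 19 CpG.

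Among fat cell markers, Adipoq was called lower and the others were not. Of 8 fat cell markers, 5 had a probe set of their own and 4 passed the filter. Adipoq, adiponectin, had intensities of 186 and 189 in the synaptic region, against 9045 and 7243 in the non-synaptic region, and passed the limma test over all probe sets (adjusted p = 0.0325), as did 0.00740% of all probe sets towards lower and 0.00370% towards higher. It passed the filter only through its non-synaptic arrays, and the call was lost with no filter, with no intensity trend and without either non-synaptic array. Retn, resistin, had 212 and 718 in the synaptic region, against 2235 and 2402 in the non-synaptic region, a log2 difference of -2.57 ± 0.61 (SE), and did not pass the test. The mean of its synaptic arrays also lay below the filter. Lep, leptin, lay below the filter, with both synaptic arrays and 1 non-synaptic array at the floor. Pparg, the transcription factor of fat cell formation, and Lpl, the lipase of the vessel wall made by fat cells and muscle fibres, did not set the regions apart, with log2 differences of -0.26 ± 0.30 and 0.05 ± 0.15 (SE). The 5 markers summed to 143996 and 123938 in the synaptic region, against 133912 and 145630 in the non-synaptic region, most of which was Lpl. In tissue RNA, fewer fat cells and less RNA per fat cell cannot be told apart. The part of the fat cell markers in the values of the 6 lower genes was not tested.

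Brown fat and liver genes were read for the same reason. Ucp1, the uncoupling protein of brown fat, had 122 and 54.6 in the synaptic region, both under the floor, against 6332 and 1985 in the non-synaptic region. It passed the filter only through its non-synaptic arrays. Cidea, a relative of Cidec known from brown fat, had 6074 and 4540 in the synaptic region, against 11161 and 7012 in the non-synaptic region, and did not pass the limma test. Cox8b, Elovl3, Dio2 and Prdm16, the other 4 markers of brown fat, had overlapping regions and log2 differences from -0.18 to 0.23. The 6 brown fat markers summed to 150715 and 132557 in the synaptic region, against 142331 and 143900 in the non-synaptic region. Pck1, Cdo1 and Cyp2e1 are strongly expressed in liver, which lies against the diaphragm. Of 11 hepatocyte markers on the array, 5 passed the filter, 0 had an unadjusted limma p under 0.05 and their median log2 difference was 0.28. The 11 summed to 4644 and 4318 in the synaptic region, against 4296 and 3950 in the non-synaptic region, with 3 of them under the floor throughout the synaptic region and 3 throughout the non-synaptic region, Fgb being at the floor on all 4. Alb, albumin, had 564 and 450 in the synaptic region, against 697 and 450 in the non-synaptic region. Apoa2, Cps1, Cyp3a11 and Tat had log2 differences from 0.18 to 0.37, and Fga, below the filter, had -0.74 with the regions apart. The part of liver RNA in the values of Pck1, Cdo1, Cyp2e1 and the other members was not tested. The 5 Schwann cell markers were all higher in the synaptic region, with summed intensities of 90994 and 99405 there, against 27271 and 28563 in the non-synaptic region, and their part in these values was not tested. Skeletal muscle markers had a median log2 difference of 0.01 over 10 genes, of which Myh4 and Actn3 were apart and lower in the synaptic region, at -1.32 and -0.18. Fibroblast markers had 7 of 8 differences below 0, where 52.3% of all probe sets tested had, and a median of -0.08. Among them Pi16, at -1.02 ± 0.22 (SE), and Dpt, at -0.26 ± 0.17 (SE), were apart and lower. The part of the fibroblast markers in the values of the 10 genes was not tested.

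**Figure D3:**
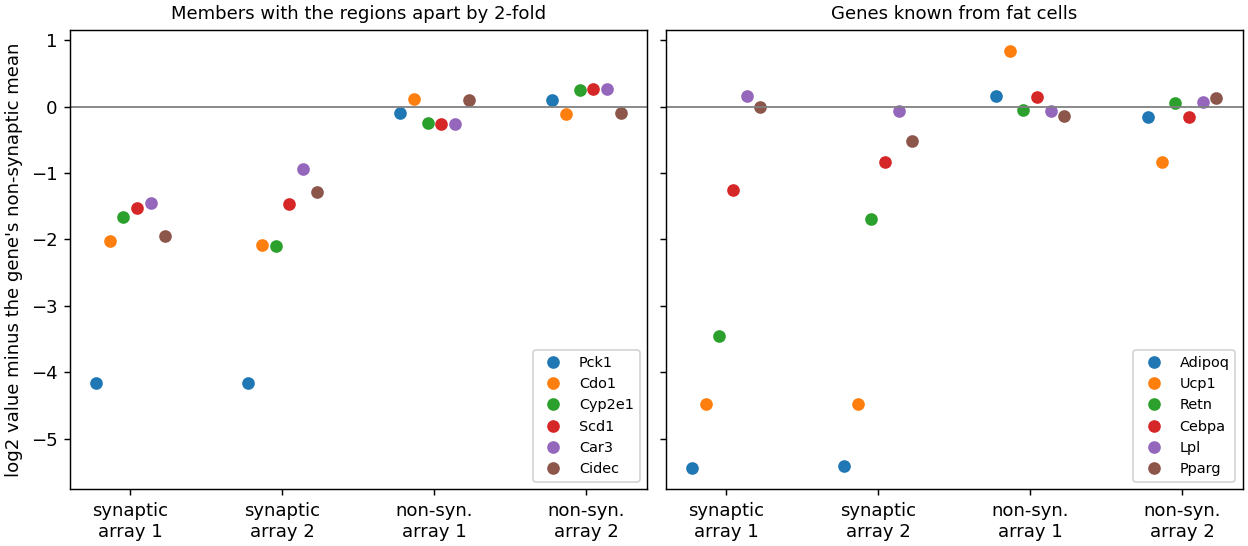
Log2 values on each array minus the mean of the 2 non-synaptic arrays of the same gene, for the 6 genes that were apart and at least 2-fold lower (left) and for 6 genes known from fat cells (right), spread sideways for legibility. Pck1 and Ucp1 are at the floor on both synaptic arrays, Retn and Cidec differ between the synaptic arrays, and Lpl stays near 0.

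The 6 lower genes did not follow each other in every array. Among the non-synaptic arrays, Scd1, Car3, Cyp2e1 and Pck1 were brighter on array 2, and Cdo1 and Cidec on array 1, as were Adipoq and Ucp1. In the synaptic region Car3 and Cidec were brighter on array 2 and Cyp2e1 on array 1. With 2 arrays per region, the order between arrays cannot be separated from noise.

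Close relatives of the 10 genes were compared in the same fit. Scd2, another stearoyl-CoA desaturase, had 9829 and 10951 in the synaptic region, against 5372 and 6531 in the non-synaptic region, a log2 difference of 0.81 ± 0.20 (SE). This direction is opposite to that of Scd1. The other 2 probe sets of Scd2 gave 0.15 and -0.17 with overlapping regions. Scd3 had 461 and 431 in the synaptic region, against 607 and 626 in the non-synaptic region, a log2 difference of -0.47 ± 0.33 (SE). Pck2, the mitochondrial carboxykinase, had 1276 and 1707 in the synaptic region, against 1886 and 2067 in the non-synaptic region, or -0.42 ± 0.26 (SE). Cideb, a relative of Cidec known from liver, had 833 and 642 in the synaptic region, against 376 and 450 in the non-synaptic region, or 0.83 ± 0.35 (SE). The mean of its non-synaptic arrays lay below the filter. The carriers Fabp3, of muscle, and Fabp5, of skin and other tissues, differed by 0.00 ± 0.14 and 0.05 ± 0.22, and Acaca, the acetyl-CoA carboxylase that feeds Fasn, by 0.08 ± 0.23. The lipases Pnpla2 and Mgll, which work before and after Lipe on the same store, differed by 0.03 ± 0.44 and -0.16 ± 0.18. None of these 9 relatives passed the limma test over all probe sets.

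Of 149 other genes of the same pathways, in 9 lists chosen with earlier results known, 138 were on the array and 127 passed the filter. After adjustment, limma called 0 of them, against 0.0111% of all probe sets. Without adjustment it put 4 lower and 2 higher past 0.05, and 0.999% of all probe sets in either direction. Regions were apart with the synaptic arrays lower for 16 of the 127 and higher for 14, against 10% each way of all probe sets. Among these, 3 genes were at least 2-fold lower and 0 at least 2-fold higher, against 0.318% and 0.570%. The 3 were Cebpa, Prkar2b and Cyp2f2, of which Prkar2b and Cyp2f2 passed the filter only through their non-synaptic arrays. Nothing is read from this count.

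Fatty acid synthesis genes, taken as a list, did not follow Scd1. In this list, 16 of 18 genes passed the filter and the median log2 difference was 0.07. The regions were apart with the synaptic arrays lower for 2 genes, Scd3 and Thrsp, and higher for 4. Over all probe sets tested, 10% were apart each way. Of the 4, Scd2 differed by 0.81 and the rest by 0.21 to 0.34. Thrsp, a regulator of fat synthesis, had 6823 and 6165 in the synaptic region, against 9559 and 10189 in the non-synaptic region, a log2 difference of -0.61 ± 0.18 (SE). Its other probe sets gave -0.75 and 0.01. Acacb, the carboxylase of oxidative muscle, differed by -0.08 ± 0.24. The 14 measured genes of triglyceride synthesis had a median of -0.28, the lowest of the 9 lists. Of these 14 differences, 11 were below 0, against 52.3% over all probe sets tested. Agpat2, an acyltransferase, had 3508 and 2690 in the synaptic region, against 5062 and 3712 in the non-synaptic region, and Gpat3, another acyltransferase, differed by -0.29 ± 0.26. Gpam, which starts the pathway, differed by -0.05 ± 0.14.

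Lipid droplet and lipolysis genes had a median of -0.03 over 18 genes. Prkar2b, a regulatory subunit of protein kinase A known from fat cells, had 252 and 409 in the synaptic region, against 1016 and 925 in the non-synaptic region, a log2 difference of -1.59 ± 0.39 (SE). Its other probe sets gave -2.11 with the regions apart and -0.04 with overlap. Plin4, a droplet coat protein, differed by 0.00 ± 0.35. Fatty acid uptake and binding, with 10 of 12 genes measured, had a median of 0.02 and 0 of these 10 with the regions apart. Apoc1, an apolipoprotein below the filter and with 1 synaptic array at the floor, is named after its values were seen. It had 158 and 206 in the synaptic region, against 719 and 731 in the non-synaptic region, a log2 difference of -2.00. Other genes of the 9 lists below the filter were apart in either direction. Car13, Car5b and Car6 had -1.04, -0.87 and -0.33, and Car5a, Mogat1 and Cyp2j9 had 0.39, 1.01 and 1.26. Fatty acid oxidation, the work of the muscle fibres themselves, had a median of 0.00 over 13 genes and differences between -0.17, for Cpt2, and 0.14.

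Transcription factors of fat cell genes had a median of 0.00 over 24 genes. Cebpa, a factor of mature fat cells, had 1135 and 1524 in the synaptic region, against 3017 and 2442 in the non-synaptic region, a log2 difference of -1.05 ± 0.27 (SE). Nr1h3, a sterol-sensing receptor, differed by -0.57 ± 0.31 and Ebf1 by -0.38 ± 0.29, both with the regions apart, while Cebpb differed by 0.03 ± 0.20. The gap between the regions of Ebf1 was only 0.002 on the log2 scale. Its other probe sets above the filter gave -0.55 with the regions apart, and -0.18 and -0.19 with overlap. In this list 3 genes were apart and lower and 3 apart and higher, against 10% each way of all probe sets. The lists around Cdo1, Car3 and Cyp2e1 had medians near 0, with single genes away from it. Cysteine and taurine genes had a median of -0.07 over 12 genes, with Slc6a6, the taurine transporter, at -0.08 ± 0.18, and the highest value of 0.76 with overlapping regions. Carbonic anhydrases had a median of 0.03 over 9 of 14 genes, and Car7 was higher at 0.64 ± 0.23, with 2732 and 3203 in the synaptic region, against 2017 and 1782 in the non-synaptic region, while its other probe sets, below the filter, gave -1.10 and -0.07. Cytochrome P450 genes had a median of 0.02 over 11 of 15 genes. Cyp2f2, a P450 of lung and other tissues, had 290 and 287 in the synaptic region, against 656 and 727 in the non-synaptic region, and Cyp4v3 differed by 0.46 ± 0.27. Got1, Car14, Cyb5r3 and Hadh, named for having the highest mean of their lists, differed by -0.13, -0.07, 0.08 and 0.04, and Car9 and Car12 by 0.41 and 0.26 with the regions apart.

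**Figure D4:**
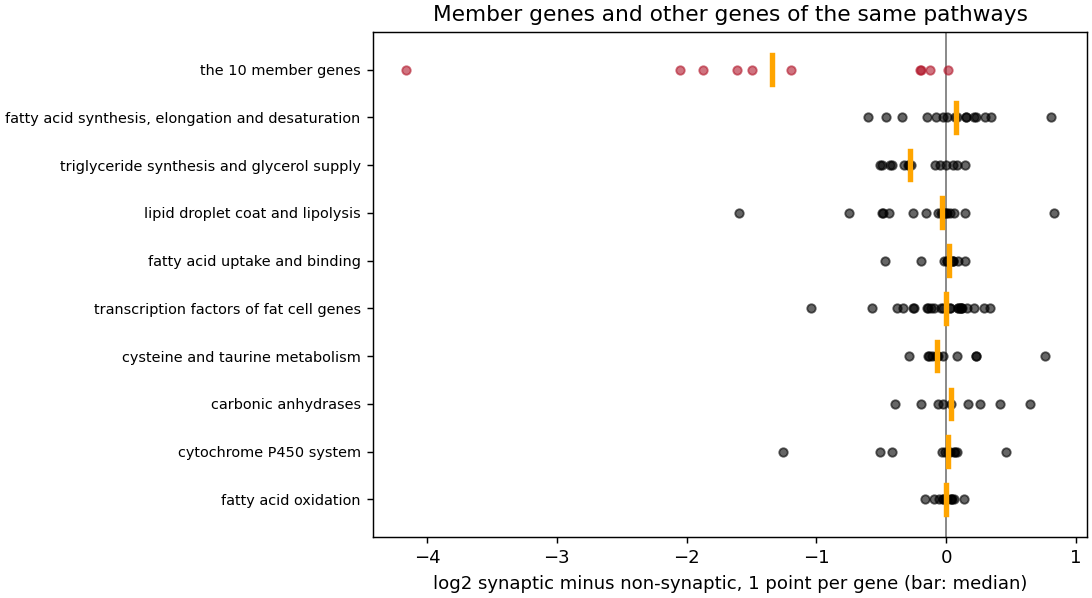
Log2 difference, synaptic minus non-synaptic, of the 10 genes (red) and of the measured genes of 9 pathway lists (black), 1 point per gene, with orange bars at the medians. The 10 genes have their median at -1.35, and the lists have medians from -0.28 to 0.07.

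The genes outside the lists with the profile nearest to the median profile of the 9 measured members were found by the Euclidean distance between log2 values over the 4 arrays, each gene centred on its own mean. Scd1 and Car3 lay nearest to that profile among the members, at 0.218 and 0.306. Cyp2e1, Cdo1, Acly and Fabp4 followed, at distances from 0.699 to 1.24. Fasn, Lipe and Pck1 lay farther from it than the median of 1.41 over 12360 genes, Pck1 farthest at 2.85. The median profile therefore does not stand for each of the 9 members. Gapdhs, a glyceraldehyde 3-phosphate dehydrogenase known from sperm, was the nearest other gene, at a distance of 0.0979, with 332 and 352 in the synaptic region against 741 and 1029 in the non-synaptic region. The 7 that followed were Pde1a, Nnat, Unc13d, Slc26a3, Leng9, Npy4r and Ifi207, at distances from 0.326 to 0.490, against a median of 1.41 over 12360 genes. The 8 were picked for nearness to that profile. Their log2 differences between -1.35 and -0.87, with both synaptic arrays below both non-synaptic arrays, therefore follow from the choice and are no result. The synaptic means of Gapdhs, Unc13d, Leng9 and Npy4r lay below the filter, so these genes passed it only through their non-synaptic arrays.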

How the data were processed

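The authors deposited linear intensity values, 1 per probe set, for 4 arrays and 45101 probe sets, of which 64 are controls. How they were summarised and scaled is not given in the sources used. The deposited scaling was kept, values under the 20th percentile (158.891) were raised to it, log2 was taken, and probe sets with a mean log2 value under the 40th percentile (8.79) were left out of the test, leaving 27026. Where several probe sets name a gene and no other, the one with the highest mean log2 value leads. The annotation of the platform can be old and gave 34958 probe sets 1 gene, 932 several and 9211 none, and symbols were updated by identifier through RefSeq (GRCm38.p6) for 34754. The 2 regions were set against each other in R 4.3.3 with limma 3.58.1 (lmFit, eBayes with trend, 2-sided, Benjamini-Hochberg, threshold 0.05), with 2 residual and 3.18 prior degrees of freedom, after a test on simulated data. With 2 arrays a side the smallest 2-sided p of an exact permutation test is 0.333, so none was used. The number of arrays limits the precision. Members and lists were chosen with earlier results of these data known. Genes named are the members, their relatives, up to 3 genes of each list with the largest difference and the regions apart, each list's brightest gene, markers of fat, brown fat and liver, and the 8 nearest profiles. Of the pathway lists, the genes below the filter with the regions apart are named as well. Endothelial, macrophage, Schwann cell, fibroblast and muscle markers were read as lists. The mesothelial list had a median of -0.07, with 0 of 6 genes apart. Alternatives were the normalization, floor, filter, trend, a replicate block, each array left out, and a gene's probe sets averaged. No other background correction could be tried on summarised values. Sequence of chromosome 18 is not shown here.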

Additional observations from a re-analysis of the deposited data

How the results depend on the processing

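The count of the 10 genes with both synaptic arrays below both non-synaptic arrays was 7 with each normalization, floor and filter, and from 7 to 9 without each array, since fewer arrays overlap less easily. The median log2 difference of the 10 genes was -0.79 with the floor at the 40th percentile and from -1.49 to -1.08 without each array. Over all probe sets, 1 was higher and 2 were lower. The higher count was 6 with median centring, 3 with the floor at the 40th percentile, 3 with the filter at the 60th percentile, and 0 with no filter or no intensity trend. The lower count was 0 with no filter or no trend. Without each array the counts were from 0 to 5 higher and from 0 to 4 lower, both at 0 without either non-synaptic array, and at 5 and 4 without array 2 of the synaptic region. The cause was not tested. Of the 10 genes, 1, Pck1, passed with median centring, where 6 of all probe sets tested were higher and 3 lower. With the replicate number as a block, 62 of the 27026 probe sets tested were higher and 20 were lower. In that fit 5 of the genes passed: Pck1, Cdo1, Cyp2e1, Scd1 and Car3. Nothing is read from the calls on members, since the genes were chosen with this contrast known. Pck1 also passed the filter only through its non-synaptic arrays. Deviations of same-numbered arrays from their region's mean correlated at 0.624 across 27026 probe sets, which are not independent, and the titles do not say what the number means. Lipe, Fasn and Acly were the 3 of the 10 genes whose sign turned in some setting, and so did 18 of the 54 other genes checked. For Pck1 and Cidec, synaptic signal at the floor leaves only a lower bound.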
